A study of Homo sapiens with 4 samples.

Results

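Imprinted genes are read mainly from the copy inherited from 1 parent. DNA methylation laid down in the germ line at control regions sets which copy is active, and zinc finger proteins such as ZFP57 help to hold that methylation in place. Many imprinted genes act on growth before birth, and several lose or gain expression in tumours. PEG3, the gene described in most detail here, is read from the paternal copy and encodes a large zinc finger protein known for roles in growth and in cell death signalling.

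The 10 genes described were PEG3, PEG10, MEST, H19, MEG3, NNAT, SNRPN, CDKN1C, PHLDA2 and NDN, and 9 of them were listed among the 33538 genes of the matrices. H19 has no row in these gene lists and was not analysed here. The genes were chosen by name, on measured values of these same libraries (the drop of PEG3 among them), so the levels that follow are a description and were not tested. They were measured by droplet-based single-cell RNA sequencing (scRNA-seq) as unique molecular identifiers (UMIs), each standing for 1 captured RNA molecule. The 4 libraries came from LNCaP, an androgen-sensitive line grown from a human prostate cancer metastasis, and there was 1 library in each group. LNCaP cells were given the solvent DMSO at 0.1% for 48 h. LNCaP-ENZ48 cells were given 10 µM enzalutamide (ENZ), a drug given against prostate cancer, for 48 h. RES-A and RES-B are lines derived from LNCaP under long exposure, RES-A to ENZ and RES-B to the related compound RD-162, and both were kept in 10 µM ENZ. Each resistant line is a single derivative, so a value in it belongs to that line.

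After filtering, the libraries held between 1782 and 4569 cells and between 50208831 and 60838227 UMIs. LNCaP cells were the deepest, with a median of 27079.5 UMIs against 12138 to 13676 in the other libraries, so shares of positive cells are also given with each cell thinned to 5000 UMIs. Between 2 and 9 cell barcodes were shared by any pair of libraries. The luminal prostate markers KRT8, KRT18, FOXA1, HOXB13, FOLH1, STEAP2 and TMPRSS2 were detected in every library, the lowest value being 7.50 CPM (UMIs counted per 1000000 UMIs of the library) for TMPRSS2 in RES-A, although KLK3, the gene of prostate-specific antigen, was at 0.0349 CPM in RES-A. Of the 12 markers of basal epithelium, leukocytes, fibroblasts and endothelium, KRT5, TP63, PTPRC, CD3E, COL1A2 and CDH5 were at 0 UMIs throughout, and the highest summed level of any of these lists was 3.21 CPM, for fibroblasts in LNCaP. With no replicates, no difference has a replicate check. Intervals are exact 95% Poisson or binomial intervals and cover counting error only.

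The promoters of SNRPN and NDN are shown because both genes lie in the imprinted region of chromosome 15 and had different ratios between the libraries. RefSeq promoter windows (GRCh38.p14) were matched for 5 of the 10 genes: H19, MEG3, MEST, NDN and SNRPN. The 250 bases before the start are printed, with matches of TGCCGC, the ZFP57 motif, on either strand in capitals.
SNRPN, chr15:24954737-24954986, + strand: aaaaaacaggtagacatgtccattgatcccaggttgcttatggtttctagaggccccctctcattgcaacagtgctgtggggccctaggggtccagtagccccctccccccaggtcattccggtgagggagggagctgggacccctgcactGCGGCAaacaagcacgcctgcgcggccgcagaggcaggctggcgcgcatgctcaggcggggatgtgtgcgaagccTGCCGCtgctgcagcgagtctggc
NDN, chr15:23687306-23687555, - strand: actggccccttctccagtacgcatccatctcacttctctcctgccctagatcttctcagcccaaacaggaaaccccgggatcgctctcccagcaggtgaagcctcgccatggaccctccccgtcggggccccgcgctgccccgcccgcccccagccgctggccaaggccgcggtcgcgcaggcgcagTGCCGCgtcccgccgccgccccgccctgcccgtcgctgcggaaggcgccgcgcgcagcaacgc

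This SNRPN start is also that of SNURF, a small gene on the same transcript. Its window of 300 bases (250 before and 50 after the start) held 18 CG dinucleotides and 2 matches of TGCCGC, and that of NDN held 35 CG dinucleotides and 1 match. Of all 35116 windows of this length, 16.7% held TGCCGC on either strand, and the median window held 14 CG dinucleotides. The other SNRPN windows held 0, 0 and 1 matches of TGCCGC. Each MEG3 window held 1, the MEST windows held between 0 and 3, and the H19 window held 0. GCCATNTT, the YY1 motif, was found in 1 of the 4 SNRPN windows, that starting at 24956050, in none of the windows of the other 4 genes, and in 6.58% of all windows. A match is a description of the letters and not a site of binding.

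PEG3 (ENSG00000198300, chromosome 19, 56810077 to 56840728, minus strand, GRCh38) had the widest range of levels over the libraries among the 9 genes. LNCaP held 15880 of its UMIs, LNCaP-ENZ48 6705, RES-A 1 and RES-B 321. As levels these were 316 CPM (95% interval 311 to 321), 110 CPM (108 to 113), 0.0174 CPM (0.000442 to 0.0972) and 6.11 CPM (5.46 to 6.81) respectively. No pair of these intervals overlapped, and the order was LNCaP, LNCaP-ENZ48, RES-B and RES-A. The log2 CPM ratio to LNCaP was -1.52 (-1.56 to -1.48) in LNCaP-ENZ48, a level 2.87-fold lower. It was -5.69 (-5.86 to -5.54) in RES-B, which is 51.8-fold lower, and -14.15 (-19.45 to -11.67) in RES-A, where it rests on 1 UMI. These 3 ratios share the LNCaP library, and so do all ratios to LNCaP given below.

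**Figure D1:**
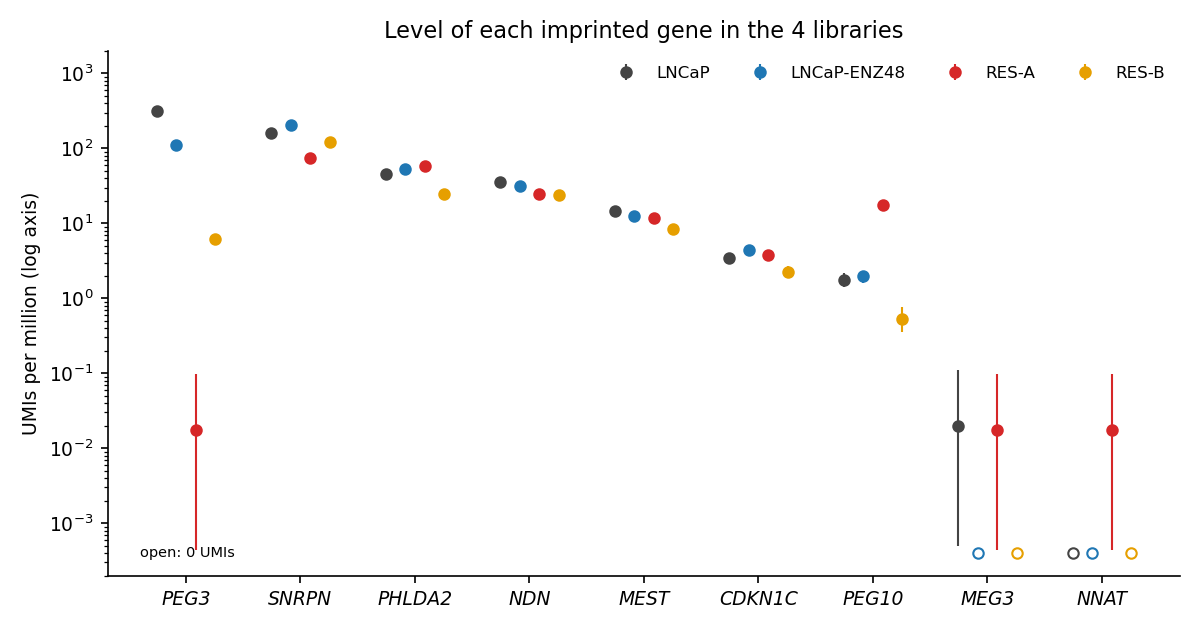
Level of each of the 9 listed genes in the 4 libraries, in CPM on a log axis, with exact 95% Poisson intervals. Open circles stand for 0 UMIs. PEG3 runs from 316 in LNCaP to 0.0174 in RES-A, PEG10 is highest in RES-A at 17.6, and the other detected genes stay within a narrower range.

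PEG3 was found in 73.8% of LNCaP cells (71.7 to 75.9), 45.6% of LNCaP-ENZ48 cells (44.1 to 47.1), 1 of 4569 RES-A cells (0.0219%, 0.000554 to 0.122) and 7.09% of RES-B cells (6.32 to 7.92). With every cell thinned to 5000 UMIs the shares were 47.5%, 27.9%, 0.0219% and 3.0%, in the same order. The RES-B share lay above the RES-A share at similar median depths of 12285 and 12138 UMIs. Barcodes left out by the cell filter gave the same picture, with 295 CPM in LNCaP, 109 CPM in LNCaP-ENZ48, 6.84 CPM in RES-B and 0 UMIs in 587 RES-A barcodes.

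In RES-B, 288 of 4061 cells held PEG3, 258 of them with 1 UMI and 30 with 2 or more, up to 4. ETV1 and H2AFJ had 4256 and 16996 UMIs in LNCaP and 0 UMIs in both resistant libraries, also in the PEG3-positive RES-B cells. These genes were picked because cells without PEG3 in the resistant libraries held none of their UMIs. Where the PEG3 RNA of RES-B came from was not tested. PEG3-positive RES-B cells had a median of 13422 UMIs and the others 12162.

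PEG3 was spread unevenly over the cells of the parental line. In LNCaP, 466 cells held no PEG3 UMI and 278 held 1, while 576 cells held 10 or more and the highest held 124. The 179 cells with the most PEG3 carried 45.03% of its UMIs. After thinning to 5000 UMIs, the variance over cells was 4.46 times the mean in LNCaP and 2.68 times in LNCaP-ENZ48. Among 984 genes within 3-fold of its LNCaP level the median ratio was 1.07, and 7 genes exceeded PEG3 (CENPF, HIST1H4C, PGK1, TUBA1B, MT1X, KLK3 and UBE2S). In LNCaP-ENZ48, 20 of 2643 genes within 3-fold exceeded it.

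**Figure D2:**
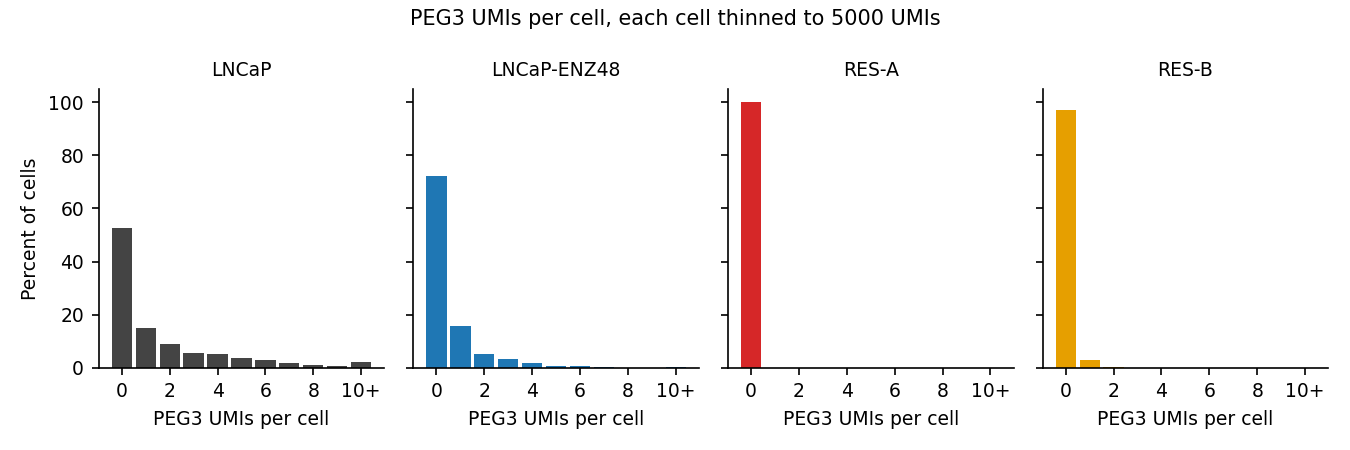
Percent of cells (y axis) by number of PEG3 UMIs per cell (x axis) in each library, after thinning every cell to 5000 UMIs. LNCaP has 52.5% of cells at 0 and a long tail, LNCaP-ENZ48 has 72.1% at 0, RES-B has 96.996% at 0, and all RES-A cells but 1 are at 0.

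The level of PEG3 went with the cell cycle phase in all 3 libraries that held it. In LNCaP it was 385 CPM (370 to 400) in the 1343 cells called G1, 292 CPM (250 to 338) in 120 S phase cells and 91.5 CPM (77.3 to 108) in 319 cells called G2M. In LNCaP-ENZ48 the corresponding levels were 120, 87.8 and 37.3 CPM, and in RES-B they were 7.28, 6.25 and 1.79 CPM. Each G2M interval lay below the G1 interval of its library. Within G1 cells, PEG3 was still lower in LNCaP-ENZ48 than in LNCaP, with a log2 ratio of -1.63. The cells called G1 were 1343 of 1782 in LNCaP and 3636 of 4315 in LNCaP-ENZ48.

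To see what else differed with PEG3, cells were grouped by their thinned PEG3 UMIs (0, 1, 2 to 3, 4 to 6, and 7 or more). The groups, and the genes shown for them, were chosen after values were seen, and cells of 1 library are not replicates. ZIM2, a zinc finger gene, starts within a few bases of PEG3 and overlaps it on the same strand. It was at 1.28 CPM (0.470 to 2.79) in the 936 LNCaP cells without PEG3 and at 38.5 CPM (23.5 to 59.4) in the 104 cells with 7 or more. Between them it was at 7.49, 10.6 and 21.7 CPM, so each group was above the one before, although the intervals of neighbouring groups overlapped from 1 UMI upward. LNCaP-ENZ48 gave 1.41, 4.09, 10.4, 18.6 and 33.3 CPM. MIMT1, a non-coding RNA that starts next to PEG3 on the opposite strand, showed no such order, with LNCaP levels of 2.14, 1.498, 6.84, 2.83 and 1.92 CPM and wide intervals.

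SNRPN and MEST, imprinted genes on other chromosomes, differed little with PEG3 among LNCaP cells. SNRPN was between 153 and 169 CPM in the 5 groups and MEST between 10.4 and 14.4 CPM. GRB10, an adaptor protein of growth factor receptors, was at 29.9 CPM (25.2 to 35.3) in cells without PEG3 and between 47.9 and 67.0 CPM in the other groups. The interval of the group with the most PEG3, 34.2 to 75.5, overlapped that of cells without PEG3. SYT4, a synaptotagmin of vesicle traffic, went the opposite way, from 117 CPM (108 to 128) in cells without PEG3 to 63.7, 12.9, 6.60 and 7.69 CPM. KLK3 was at 957 CPM (929 to 985) in cells without PEG3 and between 419 and 551 CPM in the others.

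In LNCaP-ENZ48 the same grouping gave a like order for SYT4, with 139, 38.5, 5.45 and 13.95 CPM and 0 UMIs in the last group, which held only 24 cells. GRB10 was at 83.9 CPM (79.4 to 88.5) in cells without PEG3 and between 102 and 133 CPM in the others, where the intervals of the last 2 groups reached below 88.5. KLK3 did not keep its LNCaP order there. It was at 118 CPM (113 to 124) in cells without PEG3, at 64.2, 46.9 and 89.9 CPM in the next groups, and at 250 CPM (169 to 357) in the 24 cells with the most PEG3. SNRPN was between 195 and 213 CPM in the first 4 groups and at 317 CPM (224 to 435) in the last, and MEST was between 10.5 and 16.9 CPM and at 0 UMIs in the last.

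**Figure D3:**
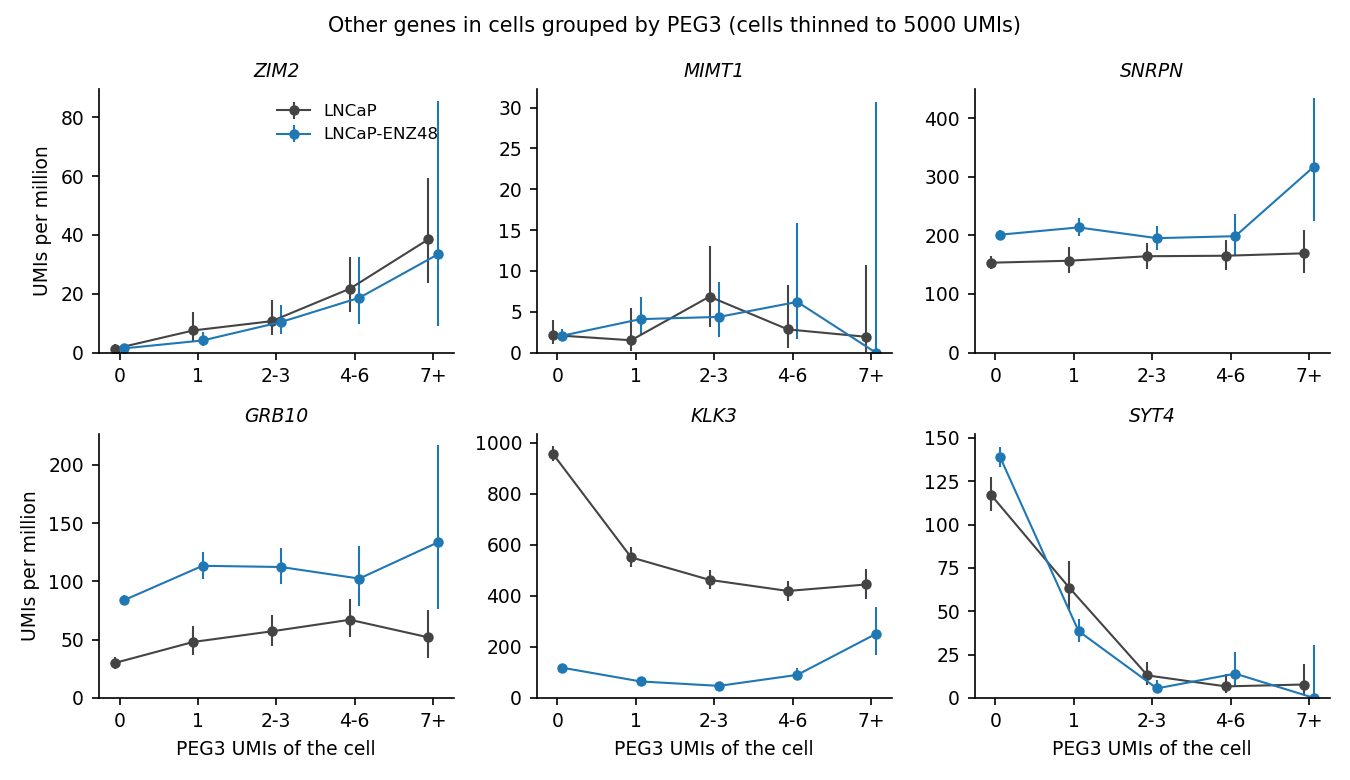
Levels of 6 other genes (y axis, CPM, with exact 95% Poisson intervals) in cells grouped by their PEG3 UMIs (x axis), for LNCaP and LNCaP-ENZ48 after thinning. ZIM2 climbs with PEG3 in both libraries, SYT4 drops from 117 to 7.69 in LNCaP, and SNRPN stays near 160 in LNCaP.

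Phase and depth moved with these groups. The share of G1 cells was 67.8% (64.7 to 70.8) in LNCaP cells without PEG3 and 92.3% (85.4 to 96.6) in those with 7 or more, and the median depth before thinning was 27806 and 25984 UMIs. Within G1 cells of LNCaP alone the same levels were 163.8 and 8.33 CPM for SYT4, 1268 and 475 CPM for KLK3, and 0.945 and 39.6 CPM for ZIM2 in the first and last group, so these differences were as large within the phase.

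Over the libraries the genes whose ratios to LNCaP were nearest to those of PEG3, among 2339 genes with at least 50 CPM in LNCaP, were KLK3, TFPI, KLK2, GULP1 and ETV1. The measure was the Euclidean distance over the 3 log2 ratios, and only 4 libraries stand behind it. Its RES-A part rests on 1 UMI for PEG3, 2 for each of KLK3, TFPI and GULP1, and 5 for KLK2. For ETV1 the count of 0 in both resistant lines was set at a floor of 3 UMIs. The ranking thus depends on genes near 0 in RES-A, and GULP1 was above LNCaP in LNCaP-ENZ48, where PEG3 was below. KLK3 was nearest, at a distance of 1.81, with 718, 94.97, 0.0349 and 30.5 CPM over the libraries, given as LNCaP, LNCaP-ENZ48, RES-A, RES-B. TFPI, at 3.46, had 62.1, 32.7, 0.0349 and 0.780 CPM. KLK2, at 3.65, had 319, 26.7, 0.0872 and 23.5 CPM, GULP1, at 3.90, had 141, 181, 0.0349 and 0.437 CPM, and ETV1 was at 0 in both resistant lines.

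Among cells, PEG3 did not follow the androgen-induced genes in the same way. LNCaP cells were split into 3 groups of equal size by the summed thinned UMIs of 8 androgen-induced genes, KLK3 and KLK2 among them, with medians of 2, 5 and 14 UMIs. PEG3 was at 317 CPM (297 to 338) in the lowest group, 387 CPM (365 to 410) in the middle group and 273 CPM (255 to 293) in the highest group. Phase was not held constant in this split. The median of the summed UMIs was 6 in LNCaP cells called G1, 4 in S phase and 2 in G2M, where PEG3 was also lowest. In LNCaP-ENZ48 these groups were at 94.3, 114 and 120 CPM, and in RES-B at 6.06, 5.76 and 7.09 CPM with overlapping intervals. Over the libraries, the summed level of the androgen-induced genes was 1514 CPM in LNCaP, 502 after 48 h of ENZ, 159 for RES-A and 275 for RES-B. In LNCaP, KLK3 at 718 CPM and KLK2 at 319 CPM made up much of this sum, which also underlies the split of cells. KLK3, KLK2, TMPRSS2, FKBP5 and PMEPA1 were below LNCaP in every other library, but STEAP2, NDRG1 and ACPP were not. In the same library order STEAP2 was at 267, 279, 92.9 and 98.6 CPM and NDRG1 at 29.7, 31.0, 10.2 and 50.9 CPM. ACPP was at 2.77, 4.18, 1.38 and 3.73 CPM.

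Both neighbours within the PEG3 domain are paternally expressed. In the library order used above, ZIM2 had 403, 163, 0 and 7 UMIs and MIMT1 had 145, 153, 0 and 41. With the count of 0 in RES-A set at a floor of 3 UMIs, its one-sided 95% limit, and the LNCaP counts taken as measured, ZIM2 was at least 153-fold lower and MIMT1 at least 55.2-fold lower than in LNCaP. The two-sided limit used for the intervals lies higher and would lower these bounds. ZIM2 stayed in proportion to PEG3, at 2.54 (2.29 to 2.80), 2.43 (2.07 to 2.84) and 2.18 (0.870 to 4.55) UMIs per 100 PEG3 UMIs in LNCaP, LNCaP-ENZ48 and RES-B. Because ZIM2 overlaps PEG3 on the same strand, reads of shared exons cannot be assigned to 1 of them. Their annotated starts lie at 56840731 and 56840728. The level of ZIM2 is thus not a reading independent of PEG3, here or over the groups of cells. MIMT1 did not stay in proportion, at 0.913 (0.770 to 1.08), 2.28 (1.93 to 2.68) and 12.8 (8.99 to 17.7). In LNCaP-ENZ48, where PEG3 was 2.87-fold lower, the MIMT1 log2 ratio was -0.20 (-0.54 to 0.14).

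Genes farther from PEG3 were compared to see how far the difference reached. Among genes whose mean over the libraries reached 10 CPM, 25 genes lay on the side of lower coordinates and 17 on the side toward the chromosome end. Relative to the median of all expressed genes, their median log2 ratio over LNCaP was 0.04 for LNCaP-ENZ48, -0.03 for RES-A and -0.30 for RES-B. The RES-A median depended on the window, since the nearest 10 genes on each side gave -0.06, -0.29 and -0.25. In RES-A, 7 of the 42 were at least 2-fold below that median, and none was 2-fold above. Of all expressed genes, 4.38% were as far below, and 3.87% in RES-B, where 3 of the 42 were. The nearest genes were among the 7. ZNF667-AS1 went from 78.1 CPM in LNCaP to 28.5 in RES-A, a log2 ratio of -1.45, ZNF667 had a ratio of -1.71, and ZNF264, nearest on the other side, had -1.18. Farther on that side, past AC005261.1 and TRAPPC2B at -0.53 and -0.47, ZNF419, ZNF814 and ZNF587 were at -1.41, -1.03 and -1.34. A1BG, which encodes a plasma glycoprotein, was the last at -1.02. Of the 7, all but A1BG and the antisense RNA ZNF667-AS1 encode zinc finger proteins of the cluster at the end of chromosome 19. In RES-B the ratios of ZNF667-AS1, ZNF667 and ZNF264 were -0.08, -0.20 and -0.20, while PEG3 was at -5.69. ZNF419, ZNF814 and ZNF587 were at -1.09, -1.51 and -0.90 in RES-B.

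**Figure D4:**
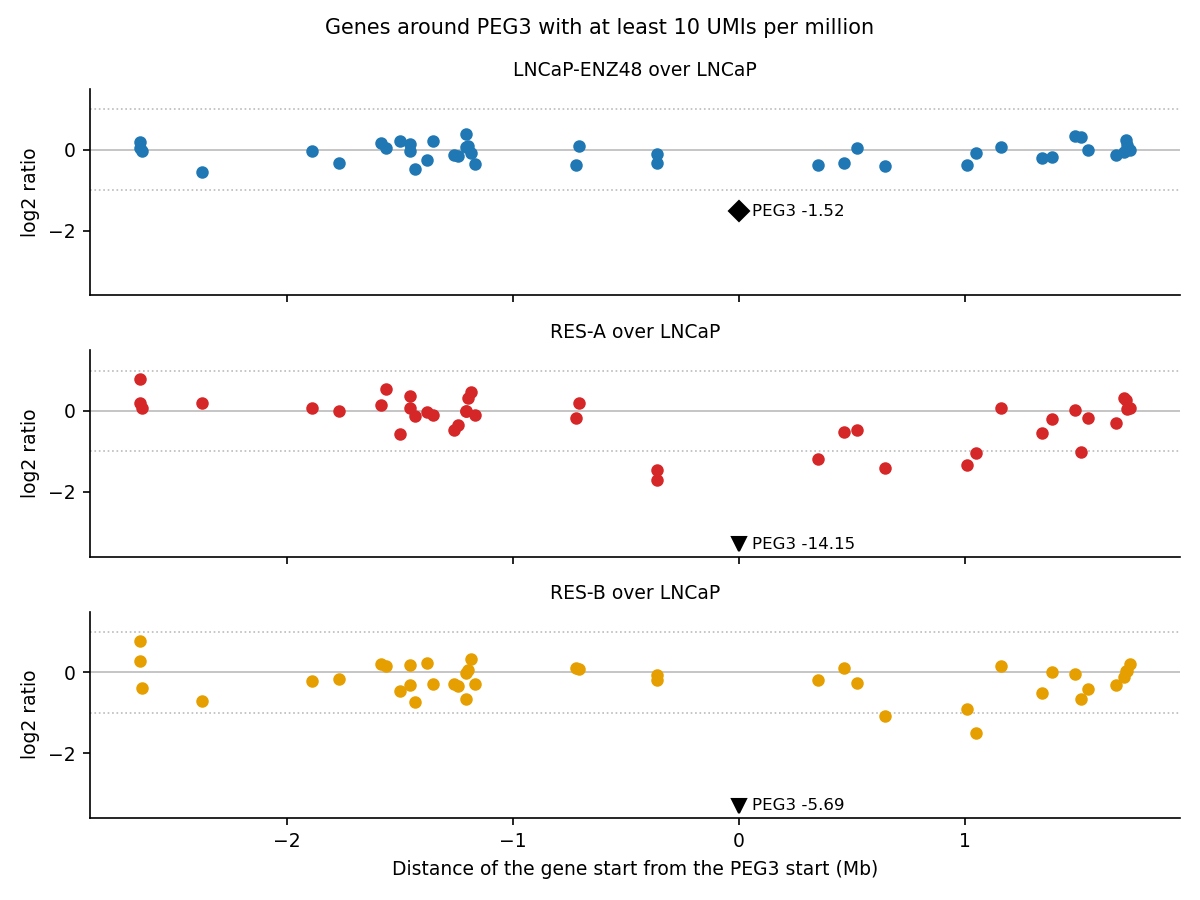
log2 ratio to LNCaP (y axis) of the genes around PEG3 with at least 10 CPM, by distance of the gene start from the PEG3 start in Mb (x axis), for LNCaP-ENZ48, RES-A and RES-B. The triangles mark PEG3 values below the axis, and dotted lines mark 2-fold. In RES-A the genes nearest to PEG3 on both sides lie below -1, and in RES-B the nearest genes lie near 0.

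PEG10 (ENSG00000242265, chromosome 7, 94656325 to 94669695) differed from LNCaP in the direction opposite to PEG3 in RES-A, but in the same direction in RES-B. It is a paternally expressed gene derived from a retrotransposon, needed in the placenta and known from several tumours. LNCaP held 89 of its UMIs (1.77 CPM, 1.42 to 2.18), LNCaP-ENZ48 119 (1.96 CPM, 1.62 to 2.34), RES-A 1010 (17.6 CPM, 16.5 to 18.7) and RES-B 28 (0.533 CPM, 0.354 to 0.770). LNCaP and LNCaP-ENZ48 overlapped, RES-A lay above both and RES-B below. RES-A was 9.94-fold above LNCaP, with a log2 ratio of 3.31 (2.999 to 3.64), and RES-B 3.33-fold below it, with -1.73 (-2.40 to -1.11). PEG10 was found in 14.8% of RES-A cells and 3.54% of LNCaP cells, or 7.49% and 0.730% after thinning.

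Within RES-A, PEG10 was at 14.5 CPM (12.7 to 16.5) in G1 cells, 25.7 CPM (19.6 to 33.1) in S phase and 29.0 CPM (24.1 to 34.5) in G2M, the reverse of the phase order of PEG3 in LNCaP. SGCE, the sarcoglycan gene that starts head to head with PEG10, had 12, 19, 15 and 3 UMIs in the 4 libraries in that order, a RES-A log2 ratio of 0.13 (-1.06 to 1.36). PPP1R9A, the next expressed gene, had a RES-A ratio of 0.04, and the median over 50 expressed genes around PEG10 was -0.01 relative to all expressed genes. The level of PEG10 in RES-A was thus 9.94-fold that of LNCaP while PPP1R9A was level, and SGCE had too few UMIs for a narrow interval.

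SNRPN (ENSG00000128739, chromosome 15, 24823637 to 24978723) encodes a protein of the splicing machinery and is paternally expressed. Its level was 161 CPM (158 to 165) in LNCaP and 205 CPM (201 to 209) in LNCaP-ENZ48. RES-A had 74.3 CPM (72.1 to 76.6) and RES-B had 120 CPM (117 to 123). All 4 intervals were apart. The log2 ratios to LNCaP were 0.35 (0.31 to 0.39), -1.12 (-1.17 to -1.06) and -0.42 (-0.47 to -0.37). SNURF, which overlaps SNRPN on the same strand so that reads cannot be split with certainty, had 46, 61, 18 and 46 UMIs. PWAR6, a non-coding RNA of the same region, had 17.4, 15.8, 6.03 and 15.2 CPM, a RES-A ratio of -1.53 (-1.71 to -1.35). All 3 genes were thus lowest in RES-A, with ratios at least 2-fold below LNCaP. The SNURF ratio of -1.55 (-2.42 to -0.73) rests on 18 UMIs in RES-A, and its interval reaches less than 2-fold.

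NDN (ENSG00000182636, chromosome 15, 23685400 to 23687305), which encodes necdin, a growth-restraining protein of the MAGE family, had 35.5 CPM (33.9 to 37.2), 31.4 CPM (30.0 to 32.8), 24.7 CPM (23.4 to 26.0) and 23.7 CPM (22.4 to 25.1). RES-A and RES-B overlapped each other, and their log2 ratios to LNCaP were -0.52 (-0.62 to -0.42) and -0.58 (-0.69 to -0.48). UBE3A, a ubiquitin ligase of this region that is maternally expressed in neurons, was between 73.6 and 90.6 CPM. The 30 expressed genes around SNRPN had a median of -0.42 for RES-A and one of -0.49 for RES-B, relative to all expressed genes, so lower levels in both resistant lines were also seen in the surroundings.

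CDKN1C, PHLDA2 and KCNQ1OT1 lie in the imprinted cluster of chromosome 11. PHLDA2 (ENSG00000181649, 2928273 to 2929420), a maternally expressed limiter of placental growth, had 45.3 CPM (43.5 to 47.2) in LNCaP and 53.5 CPM (51.7 to 55.4) in LNCaP-ENZ48. RES-A had 58.3 CPM (56.4 to 60.3) and RES-B 24.4 CPM (23.1 to 25.7). The LNCaP-ENZ48 and RES-A levels lay above LNCaP and RES-B below, with RES-B 2.39-fold below RES-A. CDKN1C (ENSG00000129757, 2883213 to 2885775), a maternally expressed inhibitor of cyclin-dependent kinases, was low, at 3.47 CPM (2.97 to 4.02), 4.39 CPM (3.88 to 4.95), 3.82 CPM (3.33 to 4.36) and 2.24 CPM (1.86 to 2.69). Only RES-B was apart from the other 3 intervals. KCNQ1OT1, the paternal non-coding RNA known to silence genes of this cluster, had 62.9, 74.9, 116 and 93.8 CPM, with a log2 ratio of 0.88 for RES-A and 0.58 for RES-B, both under 2-fold. Relative to all expressed genes, the 50 expressed genes around PHLDA2 had a median of -0.35 for RES-A and -0.40 for RES-B. Around CDKN1C these medians were -0.34 and -0.41.

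MEST (ENSG00000106484, chromosome 7, 130486171 to 130506465), a paternally expressed hydrolase, had 14.8 CPM (13.8 to 15.9), 12.3 CPM (11.5 to 13.3), 11.6 CPM (10.7 to 12.5) and 8.48 CPM (7.71 to 9.31) in the same library order. LNCaP-ENZ48 and RES-A overlapped, and RES-B was lowest at a log2 ratio of -0.80 (-0.98 to -0.63). MEG3, a maternal non-coding RNA, had 1 UMI in LNCaP and 1 in RES-A, and NNAT, which encodes a small membrane protein of neurons, had 1 UMI in RES-A. Both were otherwise at 0, and 3 UMIs amount to at most 0.0598 CPM in these libraries, so neither was detectable above that limit.

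The difference from the LNCaP level was set beside that of all genes, counting as called a gene whose mean over both libraries reached 10 CPM and whose levels differed at least 2-fold. The rule that chose the members used these contrasts, so the percentages stand only as background. In LNCaP-ENZ48 over LNCaP, 5 members passed the level filter, 0 were higher (background 0.192%) and 1, PEG3, was lower (0.645%). In RES-A over LNCaP, 5 passed, 0 were higher (3.74%), and PEG3 and SNRPN were lower (4.15%). PEG10 missed this filter because its low LNCaP level brings the mean under 10 CPM, and PEG3 passes it in RES-A and RES-B through LNCaP alone. In RES-B over LNCaP, 5 passed, 0 were higher (4.82%) and PEG3 was lower (3.08%). In RES-B over RES-A, 4 passed, 0 were higher (3.37%) and PHLDA2 was lower (1.7%). The median log2 ratio of the members that passed was -0.18, -0.52, -0.80 and -0.26 in these comparisons, beside -0.07, 0.02, 0.11 and 0.09 over all genes that passed.

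In a wider list of 57 imprinted genes, 51 were listed in the matrices. Of these, 16 reached 10 CPM in at least 1 library, 13 had at most 3 UMIs in every library, and 22 lay between. In LNCaP-ENZ48 over LNCaP, 15 genes of the wider list passed the level filter, GRB10 was 2-fold higher (background 0.192%) and PEG3 lower (0.645%). In RES-A over LNCaP, GRB10 was higher (3.74%), and PEG3, SNRPN and PWAR6 were lower (4.15%), out of 15. In RES-B over LNCaP, 0 of 15 were higher (4.82%) and PEG3 was lower (3.08%). In RES-B over RES-A, PWAR6 was higher (3.37%), and GRB10 and PHLDA2 were lower (1.7%), out of 14. PWAR6 was at 6.03 CPM in RES-A. It passes the filter through LNCaP alone in RES-A over LNCaP, and through RES-B alone in RES-B over RES-A. The median log2 ratio of the listed genes that passed was -0.03, -0.30, -0.12 and 0.21, with the members included, beside -0.07, 0.02, 0.11 and 0.09 over all genes that passed.

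GRB10 had 42.3 CPM (40.5 to 44.1) in LNCaP and 90.6 CPM (88.3 to 93.1) in LNCaP-ENZ48. RES-A had 102 CPM (99.0 to 104) and RES-B 39.0 CPM (37.3 to 40.7). It was 2.14-fold above LNCaP after 48 h of ENZ and 2.40-fold above it in RES-A, while LNCaP and RES-B overlapped narrowly. NAP1L5, a paternally expressed gene of low level, had 56, 76, 0 and 1 UMIs. Against the same floor of 3 UMIs it was at least 21.3-fold lower in RES-A than in LNCaP, and the RES-B log2 ratio of -5.87 (-11.20 to -3.34) rests on 1 UMI. It was named after its values were seen.

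**Figure D5:**
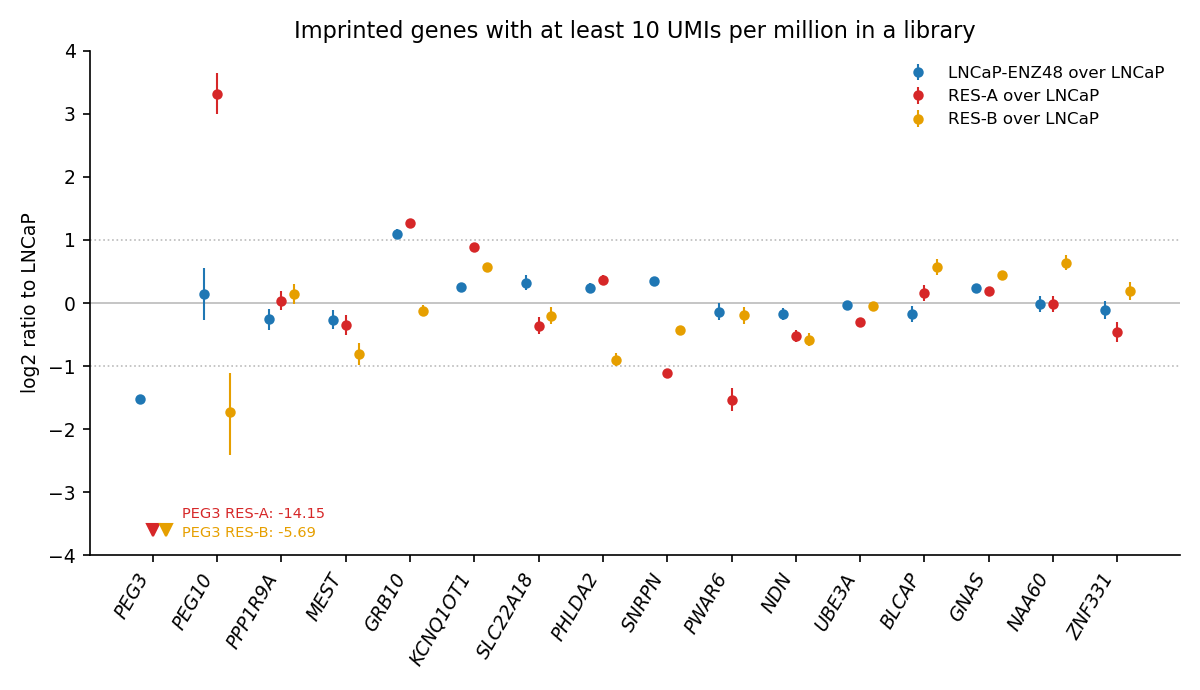
log2 ratio to LNCaP (y axis) of the 16 imprinted genes (x axis) with at least 10 CPM in a library, with exact 95% intervals. Triangles mark PEG3 values below the axis and dotted lines mark 2-fold. PEG3 lies below LNCaP in all 3 comparisons, PEG10 lies at 3.31 in RES-A and -1.73 in RES-B, and most other genes lie within 2-fold.

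Genes that act on the methylation of imprints include the DNA methyltransferases, which place and copy it, ZFP57 and its partner TRIM28, which protect it, and the TET enzymes, which oxidise methylated DNA in its removal. Of those that passed the level filter, none of the 8 differed 2-fold between LNCaP-ENZ48 and LNCaP (background 0.192% higher and 0.645% lower). For RES-A, 0 of 9 were higher (3.74%) and 1 was lower (4.15%), and for RES-B 0 of 10 were higher (4.82%) or lower (3.08%). The 1 gene was DNMT3A, a methyltransferase that places new methylation, with 15.5 CPM (14.4 to 16.6) in LNCaP and 14.99 CPM (14.03 to 15.996) in LNCaP-ENZ48. It had 7.32 CPM (6.64 to 8.06) in RES-A, and RES-B had 7.86 CPM (7.12 to 8.65). Both of these levels are under 10 CPM, so DNMT3A passes the filter there through LNCaP alone. LNCaP and LNCaP-ENZ48 overlapped, as did RES-A and RES-B. The DNMT3A log2 ratio to LNCaP was -1.08 in RES-A and -0.98 in RES-B, and the latter passed 2-fold with TMM scaling (-1.08) and with DESeq2 size factors (-1.07). DNMT1, which copies methylation after replication, had 52.8, 43.97, 97.7 and 76.5 CPM, and TET2 had 7.59, 8.99, 14.8 and 14.3 CPM, both under 2-fold above LNCaP in the resistant lines. ZFP57 had 1 UMI in LNCaP and 0 in the other libraries. The part of these genes in the levels of the imprinted genes was not tested.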

How the data were processed

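The deposited values are UMI counts per gene and cell barcode, which the authors made from 10x 3' libraries of sorted living cells (Cell Ranger 3.0.2, prebuilt reference for GRCh38). The study's cell limits per library on genes, UMIs and mitochondrial share were applied and left 1782, 4315, 4569 and 4061 cells, between 0 and 2 fewer than the study kept. The lower UMI limit was 16000 for LNCaP and 5000 for the others. Doublets were not removed, and leaving out the 5% of cells with the most UMIs was an alternative. UMIs were summed over cells and divided by the library sum (CPM), with Poisson intervals. Ratios have Clopper-Pearson intervals and a floor of 3 UMIs for a count of 0. With 1 library per group no test was run. Phase was called with scanpy 1.11.5 on thinned cells. Gene coordinates came from GENCODE 44, later than the annotation of the matrices, matched by gene ID. TMM factors (edgeR 4.0.16) and DESeq2 1.42.0 size factors were alternatives. The ratio script was tested on simulated data.

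The members, the wider lists and the rules were chosen with earlier results of these data known. Named genes were the members, other imprinted genes and imprint regulators with at least 10 CPM in a library and a 2-fold difference in any of the 4 comparisons, the 5 genes nearest to PEG3 in their ratios, and the genes around PEG3 with at least 10 CPM.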

Additional observations from a re-analysis of the deposited data

Results flagged for a closer look

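A few imprinted genes differed from LNCaP in opposite directions in RES-A and RES-B, with both counting intervals clear of no difference. With 1 library per line this contrast between the lines was not tested, and no share over all genes is given beside it. Such intervals cover counting error only, so a ratio as small as that of GRB10 in RES-B can exclude no difference. The log2 ratios to LNCaP in RES-A and RES-B were 3.31 and -1.73 for PEG10, 1.26 and -0.12 for GRB10, 0.36 and -0.90 for PHLDA2, and -0.46 and 0.20 for ZNF331, a zinc finger gene of chromosome 19. The ZNF331 direction in RES-B depended on the scaling, as its ratio was 0.09 (-0.05 to 0.23) with TMM and 0.10 (-0.04 to 0.24) with DESeq2 size factors, while the directions of the other 3 genes held under both.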

How the results depend on the processing

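The PEG3 log2 ratio in LNCaP-ENZ48 over LNCaP was -1.56 without the 5% of cells with the most UMIs, -1.63 in cells called G1, -1.57 in thinned cells, -1.43 with TMM and -1.42 with DESeq2 size factors, and its ratios in the other 3 comparisons stayed within their counting intervals under all 7 settings. The share of PEG3-positive cells was 67.2% without a cell filter in LNCaP, and after thinning it was 47.5%, 27.9% and 3.004% in LNCaP, LNCaP-ENZ48 and RES-B, or 52.7%, 29.6% and 3.45% in their G1 cells. No member changed the sign of a ratio whose interval excluded 0. A minimum of 1 CPM gave 2 imprinted genes 2-fold lower in LNCaP-ENZ48 over LNCaP, 2 higher and 6 lower in RES-A over LNCaP, 4 lower in RES-B over LNCaP and 3 higher in RES-B over RES-A. At 50 CPM, RES-B over RES-A had 0 higher and 1 lower. A fold limit of 1.5 gave 2 higher in RES-A over LNCaP, 1 higher and 3 lower in RES-B over LNCaP, and 4 higher in RES-B over RES-A. RES-B over LNCaP had 2 lower genes in G1 cells and 2 with TMM, where PHLDA2 passed 2-fold at -1.11 and -1.002. No share over all genes is given at these alternative settings, so these counts cannot be set beside a background. TMM shifted all RES-B over LNCaP ratios by -0.11 and DESeq2 size factors shifted LNCaP-ENZ48 over LNCaP by 0.10. With 10 genes on each side the median around PEG3 in RES-A over LNCaP was -0.29 in place of -0.03, and the medians around all loci moved by less than 1 SD of the genes there. No paired analysis was possible because each group has 1 library. Genes with few UMIs, such as CDKN1C, MIMT1 and SGCE, are limited by counting.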

Other observations

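Some imprinted genes of low level also differed between the libraries, and they were named after their values were seen. GNAS-AS1, a non-coding RNA of the GNAS locus, had 10 UMIs in LNCaP, 15 after 48 h of ENZ, 51 in RES-A and 9 in RES-B, while GNAS itself was between 812 and 1106 CPM. KCNK9, a potassium channel gene, had 61, 57, 13 and 17 UMIs in that order, so both resistant lines were lower than LNCaP. MKRN3, a paternally expressed gene of the chromosome 15 region, had 78, 79, 39 and 50 UMIs. USP29 and the other genes with at most 3 UMIs in every library could not be compared.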
